A study of Mus musculus with 21 samples.

Results

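Collecting duct genes were followed in podocyte fractions of mouse kidney, because transcripts of water, sodium and acid transport were abundant there although the fractions had been sorted for nephrin, a podocyte protein. The group was defined by name and holds 10 genes of the 27179 listed in the count tables. Of these, 7 were listed under the principal cell (Aqp2, Aqp3, Avpr2, Scnn1a, Scnn1b, Scnn1g and Slc14a2) and 3 under the intercalated cell (Atp6v1b1, Slc4a1 and Slc26a4). All 10 were among the 16377 genes with enough counts to be tested. The libraries came from wildtype male C57BL/6J mice, with 1 library per mouse. There were 6 young mice of 4 months that received no treatment, 7 middle-aged mice of 19.5 months that received saline, and 8 middle-aged mice of 19.5 months that received 10 mg/kg of MCC950, an inhibitor of the NLRP3 inflammasome. Both middle-aged groups were injected intraperitoneally for 6 weeks from 18 months of age. The young mice received no saline, so age and injection cannot be told apart. The medulla was cut away before the cortex was digested, and cells were then held on magnetic columns by antibodies to nephrin.

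The collecting duct adjusts the final composition of urine. Principal cells take up water through aquaporins, under the control of vasopressin and its receptor, and sodium through the epithelial sodium channel, under the control of aldosterone. Intercalated cells secrete acid or bicarbonate with a vacuolar proton pump and anion exchangers. In the kidney these cells lie outside the glomerulus, and none of the 10 genes is a podocyte marker.

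Total counts per library ranged from 27375870 to 36827823 in young mice, from 45772937 to 84876399 in saline-treated mice and from 35440472 to 58247271 in MCC950-treated mice, so depth differed with age. Mitochondrial genes took 69.3% ± 9.82 (SD, n = 6), 69.6% ± 5.32 (SD, n = 7) and 56.4% ± 4.46 (SD, n = 8) of the counts. The summed level of 10 podocyte markers was between 757 and 1701 CPM (counts relative to the library total, scaled for composition) in young, 299.5 and 548 in saline-treated and 397 and 661 in MCC950-treated libraries. The saline-treated and MCC950-treated ranges both lay below the young one. No podocyte marker was below 1 CPM throughout a group. The podocyte list had 9 of its 10 genes lower in saline-treated than in young mice. Of all genes tested, 12.4% were lower and 12.2% higher in this comparison. Mesangial and smooth muscle markers had 7 of 8 lower, with sums of 164 to 259 CPM in young and 53.3 to 109.1 CPM in saline-treated libraries, and B and plasma cell markers 3 of 7 higher, with sums of 39.4 to 180.1 and 399.9 to 581 CPM. T cell markers had 3 of 8 higher, with sums of 4.93 to 14.6 and 14.5 to 23.6 CPM. The T cell genes called were Cd3d, Cd3e and Cd3g, each near the floor and below 1 CPM in every young library. With MCC950 against saline edgeR called 0 genes of these 3 lists, with 3, 3 and 1 genes of the mesangial, T cell and B cell lists at an unadjusted p under 0.05 and 2, 0 and 0 by DESeq2. The part of these lists in the results that follow was not tested.

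All 10 genes were lower in MCC950-treated than in young mice, and 4 were lower in saline-treated than in young mice. MCC950-treated mice differed from saline-treated mice in 1 gene, which was lower and was not among the 4. In saline-treated against young mice 4 of the 10 genes were lower and 0 were higher at an adjusted p under 0.05 (edgeR, quasi-likelihood test), beside 12.4% of all genes tested that were lower and 12.2% that were higher. The 4 were Aqp2, Avpr2, Scnn1b and Scnn1g, all from the principal cell, whereas DESeq2 called 8, of which 6 were principal and 2 intercalated cell genes. In MCC950-treated against saline-treated mice 1 of 10 was lower, the urea transporter gene Slc14a2, beside 4.86% of all genes, and 0 were higher by edgeR, where 11.9% of all genes were, at an unadjusted p under 0.05 or by DESeq2. In MCC950-treated against young mice 10 of 10 were lower, beside 16.5% of all genes. Of these 10, Aqp2, Scnn1a and Slc26a4 did not pass without young replicate 3, and the last 2 each also lost the call without any of 6 other libraries. These comparisons share their groups, so they are not independent of each other. In bulk libraries, fewer collecting duct cells and less RNA of a gene per cell cannot be told apart. The count of 4 rested on young replicate 3, without which edgeR called 0, with 5 at an unadjusted p under 0.05. With the podocyte marker score as a covariate edgeR called 0, 0 and 1 in the 3 comparisons, with 0, 1 and 6 at an unadjusted p under 0.05. Under this covariate the log2 fold changes of the 4 genes in saline-treated against young mice were -0.59 for Aqp2, -0.90 for Avpr2, -0.61 for Scnn1b and -0.75 for Scnn1g, so the calls were lost while the folds stayed near those given below. As given above, the summed podocyte markers separated the young libraries from all middle-aged ones.

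**Figure D1:**
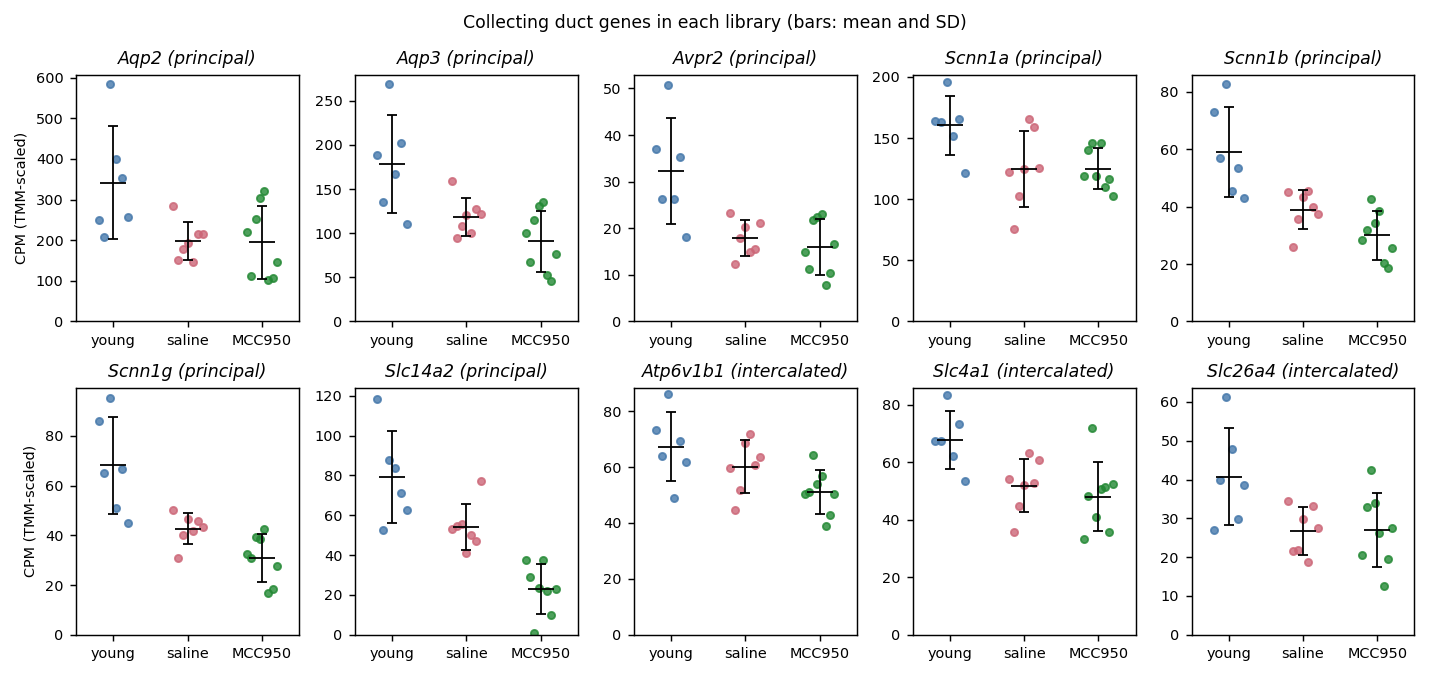
Level of each gene in CPM (vertical axes, starting at 0) in every young, saline and MCC950 library, with the mean and SD of each group as black bars. Young libraries reach the highest levels for all 10 genes, and the 8 MCC950 points of Slc14a2 all lie below the 7 saline points.

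Per kilobase of exon, Aqp2 was the highest of the 10 genes, with 241 ± 97.4 CPM per kilobase in young (SD, n = 6), 139 ± 33.1 in saline-treated (SD, n = 7) and 137 ± 63.8 in MCC950-treated mice (SD, n = 8). Aqp3 followed with 97.6 ± 30.5, 64.9 ± 11.8 and 49.5 ± 19.0 CPM per kilobase. Scnn1a came next, with 38.8 ± 5.81, 30.3 ± 7.50 and 30.3 ± 4.03 CPM per kilobase. Each of these 3 lay above the next gene by more than the larger SD in every group. The lower ranks were close together: in young mice Scnn1g and Scnn1b differed by less than their SDs, and so did each neighbouring pair from Atp6v1b1 through Slc14a2, Slc4a1 and Slc26a4 to Avpr2, the lowest at 11.2 ± 3.94 CPM per kilobase. In MCC950-treated mice Slc14a2 was the lowest, at 4.44 ± 2.43 CPM per kilobase, within the SD of Avpr2 at 5.55 ± 2.06.

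Aqp2 (chr15:99579055-99584547, GRCm38, as for the gene positions that follow) encodes the apical water channel that vasopressin sends to the cell surface. Its level had a lowest, median and highest value of 209, 304 and 584 CPM in young, 146, 194 and 284 CPM in saline-treated and 100.95, 183 and 319.9 CPM in MCC950-treated libraries. The groups overlapped, with 4 of 7 saline-treated libraries below the lowest young one. The top value was that of young replicate 3. The log2 fold change was -0.79 ± 0.29 (SE) in saline-treated against young mice, a level 42.1% lower (edgeR adjusted p = 0.0488). It lost the call without young replicate 3 (edgeR adjusted p = 0.157) and without any of 11 other libraries. In MCC950-treated against young mice it was -0.81 ± 0.28 (edgeR adjusted p = 0.0255), and without young replicate 3 the adjusted p was 0.0777. Between MCC950-treated and saline-treated mice it was -0.02 ± 0.27 (edgeR adjusted p = 0.966). The MCC950-treated libraries themselves spread over 3.17-fold, with replicates 2, 6 and 7 at 110.8, 100.95 and 107.1 CPM and replicates 4 and 5 at 304 and 319.9 CPM.

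Aqp3 (chr4:41092722-41098183) is the channel by which water leaves the principal cell on the basolateral side. It had a lowest, median and highest level of 110.2, 178 and 269 CPM in young, 94.3, 120.1 and 159 CPM in saline-treated and 46.1, 88.4 and 135 CPM in MCC950-treated libraries. The median was lower in saline-treated than in young and lower again in MCC950-treated libraries, and neighbouring groups overlapped. Its log2 fold change was -0.59 ± 0.24 (SE) in saline-treated against young mice and did not pass the test (edgeR adjusted p = 0.0731). In MCC950-treated against young mice it was -0.98 ± 0.23 (edgeR adjusted p = 0.00232), and in MCC950-treated against saline-treated mice -0.39 ± 0.22 (edgeR adjusted p = 0.233).

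Avpr2 (chrX:73892102-73895502) encodes the vasopressin V2 receptor, which raises cyclic AMP in the principal cell. Its level had a lowest, median and highest value of 18.2, 30.7 and 50.8 CPM in young, 12.4, 18.0 and 23.2 CPM in saline-treated and 7.87, 15.8 and 23.0 CPM in MCC950-treated libraries. Saline-treated and MCC950-treated values covered much the same range, and 4 of 7 and 5 of 8 of them were below the lowest young library. The log2 fold change was -0.85 ± 0.25 (SE) in saline-treated against young mice (edgeR adjusted p = 0.0154). It was -1.01 ± 0.24 in MCC950-treated against young mice (edgeR adjusted p = 0.00248) and -0.16 ± 0.23 against saline-treated mice (edgeR adjusted p = 0.668). Avpr2 needs care, since 81.3% of its exon bases in GENCODE are also exon bases of Arhgap4 on the opposite strand and the strand setting of the counting is not given in the sources used here. Arhgap4 itself was higher in saline-treated than in young mice, by 0.64 ± 0.24 on the log2 scale (edgeR adjusted p = 0.0496), the opposite direction to Avpr2.

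The 3 water genes deviated together between mice of the same group. Pearson's r of their deviations from group means over 21 libraries was 0.92 for Aqp2 with Aqp3, 0.82 for Aqp2 with Avpr2 and 0.92 for Aqp3 with Avpr2, given as descriptions of genes measured in the same libraries. The 250 bases upstream of the RefSeq start (GRCm38.p6) are shown for both aquaporins, which moved together, and for Atp6v1b1, the pump gene used as the reference of the intercalated cell. Capitals mark matches, on either strand, to letters chosen after the sequences had been seen. The half-site of cyclic AMP response elements was searched as TGACG. The site of GATA factors was searched as AGATAA. For steroid receptors the half-site was written AGAACA, and for forkhead factors the site was TGTTTAC.
Aqp2, chr15:99578806-99579055, + strand: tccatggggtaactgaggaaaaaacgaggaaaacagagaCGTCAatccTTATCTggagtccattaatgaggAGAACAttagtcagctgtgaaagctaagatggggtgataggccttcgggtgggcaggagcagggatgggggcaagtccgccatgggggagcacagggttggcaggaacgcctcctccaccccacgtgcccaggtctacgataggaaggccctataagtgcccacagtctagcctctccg
Aqp3, chr4:41098184-41098433, - strand: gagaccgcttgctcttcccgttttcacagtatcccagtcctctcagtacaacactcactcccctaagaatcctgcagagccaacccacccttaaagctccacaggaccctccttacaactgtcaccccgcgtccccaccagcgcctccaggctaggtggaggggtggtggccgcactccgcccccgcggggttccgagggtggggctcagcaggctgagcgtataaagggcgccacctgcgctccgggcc
Atp6v1b1, chr6:83742767-83743016, + strand: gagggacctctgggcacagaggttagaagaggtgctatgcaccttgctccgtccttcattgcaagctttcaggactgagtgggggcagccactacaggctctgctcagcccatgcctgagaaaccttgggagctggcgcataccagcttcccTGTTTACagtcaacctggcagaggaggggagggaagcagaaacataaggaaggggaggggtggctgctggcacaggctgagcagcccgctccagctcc
The Aqp2 stretch held 1 match each to the cyclic AMP, GATA and steroid receptor letters, at 211, 202 and 179 bases upstream, shown as they read on the printed strand. Atp6v1b1 held 1 match to the forkhead letters at 98 bases upstream, and the Aqp3 stretch held none of the 4. Among 32851 promoter stretches of the same length, 17.8% held the cyclic AMP letters, 9.99% the GATA letters, 16.1% the steroid receptor letters and 3.17% the forkhead letters. A match describes the letters only. Promoter stretches were given for 7 of the 10 genes. Of those not printed, Avpr2 also held the forkhead letters, at 131 bases upstream of the start used for it, and 2 steroid receptor matches. Slc26a4 held 1 steroid receptor match. The forkhead letters thus occurred in a gene of each cell type. The Avpr2 and Slc26a4 stretches overlap the RefSeq spans of their genes, so they do not lie upstream of the outermost RefSeq start.

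The balance of both aquaporins within a library differed between MCC950-treated and saline-treated mice, the 1 of 9 ratio comparisons that passed the test. The log2 ratio of Aqp2 to Aqp3 counts does not depend on how libraries are scaled to each other. Its lowest, median and highest values were 0.40, 0.96 and 1.26 in young, 0.55, 0.72 and 0.84 in saline-treated and 0.71, 1.13 and 1.24 in MCC950-treated libraries. The saline-treated libraries sat in a narrow band, and 7 of 8 MCC950-treated libraries lay above all of them. The mean was 1.06 ± 0.19 (SD, n = 8) with MCC950 and 0.72 ± 0.10 (SD, n = 7) with saline, a difference of 0.34 (exact two-sided permutation test, p = 0.00218, adjusted p = 0.0196 over 9 ratio comparisons). Leaving out each library in turn kept the difference between 0.31 and 0.39, with an adjusted p of at most 0.042. The ratio of saline-treated to young mice differed by -0.18 (exact permutation test, adjusted p = 0.456), and the young libraries spread over the values of both other groups. The ratio shows unequal levels of the pair and not which of them changed.

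**Figure D2:**
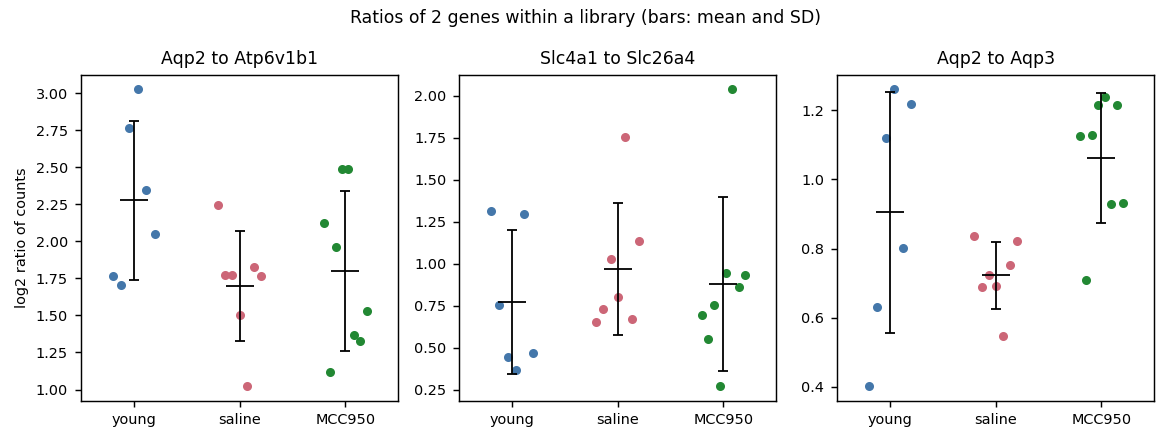
Log2 ratio of the counts of 2 genes within each library (vertical axes, not starting at 0), for Aqp2 to Atp6v1b1, Slc4a1 to Slc26a4 and Aqp2 to Aqp3, with group means and SDs as black bars. In the right panel 7 of 8 MCC950 libraries lie above every saline library, and in the other panels the groups overlap widely.

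The epithelial sodium channel is built of 3 subunits, alpha (Scnn1a, chr6:125320659-125344943), beta (Scnn1b, chr7:121865038-121918514) and gamma (Scnn1g, chr7:121734479-121768475). Scnn1a had a lowest, median and highest level of 122, 164 and 196 CPM in young, 75.3, 125 and 166 CPM in saline-treated and 103, 119 and 146 CPM in MCC950-treated libraries. The middle-aged groups had the same mean, 125 CPM. Its log2 fold change was -0.36 ± 0.15 (SE) in saline-treated against young mice, which did not pass the test (edgeR adjusted p = 0.0759), and -0.36 ± 0.14 in MCC950-treated against young mice, which did (edgeR adjusted p = 0.0488), so the split by the threshold is no difference between them.

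Scnn1b had a lowest, median and highest level of 43.1, 55.2 and 82.8 CPM in young, 26.0, 39.8 and 45.5 CPM in saline-treated and 18.6, 30.2 and 42.8 CPM in MCC950-treated libraries. All 8 MCC950-treated libraries were below the lowest young one, as for 4.66% of all genes tested. Its log2 fold change was -0.60 ± 0.19 (SE) in saline-treated against young mice (edgeR adjusted p = 0.024), -0.98 ± 0.18 in MCC950-treated against young mice (edgeR adjusted p = 0.000362) and -0.38 ± 0.18 in MCC950-treated against saline-treated mice (edgeR adjusted p = 0.145).

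Scnn1g followed the beta subunit closely. Its lowest, median and highest levels were 45.1, 65.8 and 95.4 CPM in young, 30.7, 43.4 and 50.3 CPM in saline-treated and 16.7, 31.7 and 42.5 CPM in MCC950-treated libraries. Again all 8 MCC950-treated libraries lay below the lowest young one, and all 8 lay below the saline-treated median. The log2 fold change was -0.68 ± 0.20 (SE) in saline-treated against young mice (edgeR adjusted p = 0.0189), -1.15 ± 0.20 in MCC950-treated against young mice (edgeR adjusted p = 0.000171) and -0.47 ± 0.19 in MCC950-treated against saline-treated mice (edgeR adjusted p = 0.0935). Within groups Scnn1b and Scnn1g deviated together with r = 0.95 over 21 libraries, the highest of the 15 pairs of principal cell genes other than Slc14a2, whose median was 0.80. Scnn1a was less like the water genes, with r = 0.33 for Aqp2.

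**Figure D3:**
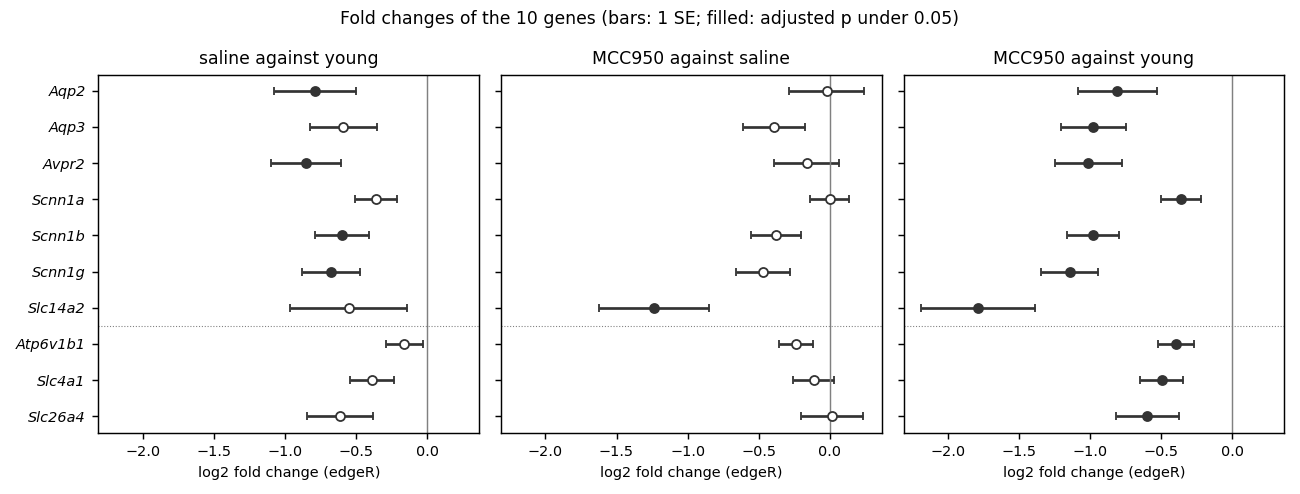
Log2 fold change from edgeR (horizontal axes) of each gene in the 3 comparisons, with bars of 1 SE, filled points for an adjusted p under 0.05 and a dotted line between principal and intercalated cell genes. In the middle panel Slc14a2 at -1.24 is the one filled point, and in the right panel all 10 points are filled and below 0.

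Slc14a2 was placed with the principal cell genes by the list only. It encodes the vasopressin-regulated urea transporters, known from the inner medullary collecting duct and the thin descending limb. In these cortical fractions its lowest, median and highest levels were 52.4, 77.5 and 118 CPM in young, 40.8, 53.3 and 77.3 CPM in saline-treated and 1.10, 23.1 and 37.7 CPM in MCC950-treated libraries. Every MCC950-treated library lay below every saline-treated one, a separation in that direction shared by 0.586% of all genes tested. The log2 fold change in MCC950-treated against saline-treated mice was -1.24 ± 0.39 (SE), a level 57.5% lower (edgeR adjusted p = 0.0329). It was -1.79 ± 0.40 in MCC950-treated against young mice (edgeR adjusted p = 0.00171) and -0.55 ± 0.41 in saline-treated against young mice (edgeR adjusted p = 0.35). The call against saline was lost without saline replicate 7 or without MCC950 replicate 4, with edgeR adjusted p up to 0.0586, while the log2 fold change stayed between -1.37 and -1.05 when any library was left out. A proximal tubule or a podocyte marker score as a covariate also ended the call, at log2 fold changes of -1.67 (edgeR adjusted p = 0.0645) and -1.04 (edgeR adjusted p = 0.0881). Of 10 proximal tubule markers 7 were higher with MCC950 against saline, beside 11.9% of all genes. Their summed level was between 1205 and 3079 CPM in saline-treated and between 2331 and 5263 CPM in MCC950-treated libraries. Of all 16377 genes, 306 were lower with the proximal tubule score and 1277 with the podocyte score, beside 796 without a covariate. The proximal tubule markers differed with treatment themselves, so the covariate cannot tell their part in the level of Slc14a2. That part was not tested.

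The lowest Slc14a2 level was that of MCC950 replicate 3, with 52 counts (1.10 CPM), beside 10.1 to 37.7 CPM in the other MCC950-treated libraries. Every other count of the 10 genes in any library was at least 430. That library was not low in the other collecting duct genes, since it held the highest Scnn1a, Scnn1b, Atp6v1b1, Slc4a1 and Slc26a4 levels of its group. Over all 21 libraries Slc14a2 had r between -0.40 and 0.03 with the 9 other genes, but between 0.09 and 0.60 without MCC950 replicate 3. The low values of Pearson's r thus rested in part on 1 library. Spearman's rho over all 21 libraries, which depends less on 1 far value, was also low, from -0.06 for Slc26a4 to 0.31 for Aqp3. The related urea transporter gene Slc14a1 had a lowest, median and highest level of 3.55, 8.38 and 9.09 CPM in young, 9.22, 11.1 and 12.6 CPM in saline-treated and 2.57, 4.97 and 7.90 CPM in MCC950-treated libraries. The saline-treated libraries lay above all MCC950-treated ones, a separation in that direction shared by 0.586% of all genes tested. The lowest saline-treated value, 9.22 CPM, was barely above the highest young value, 9.09 CPM. The lowest value of all was again MCC950 replicate 3. Slc14a1 had a log2 fold change of -0.98 ± 0.19 (SE) in MCC950-treated against saline-treated mice (edgeR adjusted p = 0.00379). Against young mice it was 0.58 ± 0.21 with saline (edgeR adjusted p = 0.0508), opposite in sign to Slc14a2, and -0.40 ± 0.21 with MCC950 (edgeR adjusted p = 0.129).

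**Figure D4:**
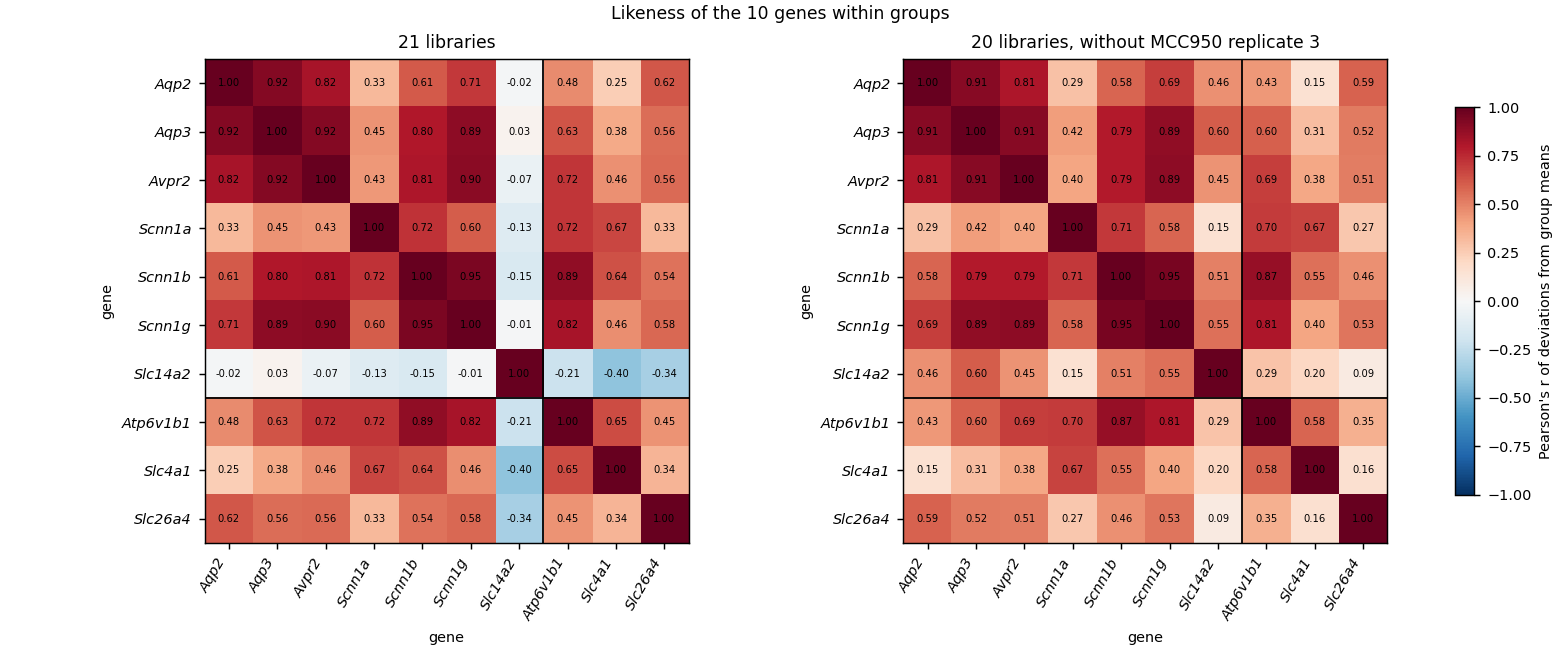
Pearson's r (colour and numbers) between the 10 genes, from deviations of log2 CPM from group means, over 21 libraries (left) and over 20 without MCC950 replicate 3 (right), with black lines between principal and intercalated cell genes. The row of Slc14a2 runs from -0.40 to 0.03 on the left and from 0.09 to 0.60 on the right. Other pairs change less, though Slc4a1 with Slc26a4 falls from 0.34 to 0.16.

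Among intercalated cell genes, Atp6v1b1 (chr6:83742990-83758855) encodes the kidney form of the B subunit of the proton pump. It had a lowest, median and highest level of 49.1, 66.5 and 86.0 CPM in young, 44.6, 60.8 and 71.8 CPM in saline-treated and 39.0, 50.8 and 64.5 CPM in MCC950-treated libraries. The groups overlapped widely. The log2 fold change was -0.16 ± 0.13 (SE) in saline-treated against young mice (edgeR adjusted p = 0.392), the smallest of the 10 genes, -0.24 ± 0.12 in MCC950-treated against saline-treated mice (edgeR adjusted p = 0.183) and -0.40 ± 0.12 in MCC950-treated against young mice (edgeR adjusted p = 0.0167).

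Slc4a1 (chr11:102348824-102366203) encodes the anion exchanger of acid-secreting type A cells and of red blood cells. It had a lowest, median and highest level of 53.5, 67.4 and 83.4 CPM in young, 35.7, 52.8 and 63.3 CPM in saline-treated and 33.3, 49.4 and 71.9 CPM in MCC950-treated libraries. Of the MCC950-treated libraries 7 of 8 were below the lowest young one, the exception being replicate 3. The log2 fold change was -0.39 ± 0.16 (SE) in saline-treated against young mice (edgeR adjusted p = 0.0733), -0.11 ± 0.14 in MCC950-treated against saline-treated mice (edgeR adjusted p = 0.639) and -0.50 ± 0.15 in MCC950-treated against young mice (edgeR adjusted p = 0.0131). Of 9 red blood cell markers 5 could be tested and 0 were called in any of these comparisons by edgeR, at an unadjusted p under 0.05 either, or by DESeq2. Their summed level was 68.2 to 160.5 CPM in young, 46.9 to 262 CPM in saline-treated and 36.1 to 143 CPM in MCC950-treated libraries.

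Slc26a4 (chr12:31519827-31559969) encodes pendrin, the chloride and bicarbonate exchanger of type B cells. It had a lowest, median and highest level of 27.1, 39.3 and 61.2 CPM in young, 18.7, 27.6 and 34.4 CPM in saline-treated and 12.5, 26.9 and 42.6 CPM in MCC950-treated libraries. Both middle-aged groups had almost the same mean, 26.7 and 27.0 CPM. Its log2 fold change was -0.61 ± 0.23 (SE) in saline-treated against young mice, short of the threshold (edgeR adjusted p = 0.059), 0.01 ± 0.22 in MCC950-treated against saline-treated mice (edgeR adjusted p = 0.973) and -0.60 ± 0.22 in MCC950-treated against young mice (edgeR adjusted p = 0.0407). The log2 ratio of Slc4a1 to Slc26a4, which sets type A against type B cells, was 0.77 ± 0.43 (SD, n = 6) in young, 0.97 ± 0.39 (SD, n = 7) in saline-treated and 0.88 ± 0.52 (SD, n = 8) in MCC950-treated mice. None of its 3 comparisons passed (exact permutation tests, adjusted p from 0.61 to 0.729).

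The 4 genes that edgeR called in saline-treated against young mice were all from the principal cell, but a difference between the cell types was not shown. The log2 ratio of Aqp2 to Atp6v1b1 was 2.28 ± 0.54 (SD, n = 6) in young, 1.70 ± 0.37 (SD, n = 7) in saline-treated and 1.80 ± 0.54 (SD, n = 8) in MCC950-treated mice. The difference of -0.58 between saline-treated and young mice had p = 0.049 by an exact two-sided permutation test and did not pass adjustment (adjusted p = 0.22). The median log2 fold change in this comparison was -0.60 for the 7 principal cell genes and -0.39 for the 3 intercalated cell genes, beside 0.02 for all genes tested. In MCC950-treated against young mice these medians were -0.98 and -0.50, beside 0.08 for all genes.

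Libraries with more Aqp2 than their group mean tended to hold more Atp6v1b1 (Pearson's r = 0.48, permutation p = 0.0381, adjusted p = 0.0762; Spearman's rho = 0.45, permutation p = 0.0524, n = 21). Without the pair of libraries farthest from the Aqp2 median, MCC950 replicate 6 and young replicate 3, r was 0.25 (permutation p = 0.298). These libraries were picked by their Aqp2 level, and leaving them out narrows its range. The fall in r alone does not show that the relation of this pair of genes depended on them. With all libraries the relation did not pass adjustment either. Other pairs were closer. Over 18 pairs of a principal cell gene other than Slc14a2 with an intercalated cell gene, r ran from 0.25 to 0.89, with a median of 0.57. The highest was that of Scnn1b with Atp6v1b1. These values are descriptions and were not tested. Genes whose deviations were most like those of Aqp2 over 21 libraries were Car15 (r = 0.92), a carbonic anhydrase gene, Kif26b (0.92), of the kinesin family, the predicted gene Gm14207 (0.89), Mal2 (0.85), of vesicle transport, and Pappa (0.85), a protease gene. Among those most like Atp6v1b1 were Ninl (0.89), of the centrosome, Cdo1 (0.88), of cysteine breakdown, Mpzl1 (0.87) and Krt7 (0.87), a keratin gene.

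Of 9 other genes of water and urea handling, 2 were lower (12.4% of all genes) and 0 higher in saline-treated than in young mice by edgeR, while DESeq2 also called 1 higher, Slc14a1, whose values are given above. They were Aqp4, a basolateral water channel of the principal cell, at -0.73 ± 0.26 (log2, SE, edgeR adjusted p = 0.0428), and Adcy6, an adenylyl cyclase, at -0.41 ± 0.13 (edgeR adjusted p = 0.0226). The list's median log2 fold change was -0.02, that of all genes 0.02. With MCC950 against saline 2 of 9 were lower (4.86% of all genes), Slc14a1 and Aqp4, the latter by -0.72 ± 0.24 (edgeR adjusted p = 0.0423).

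The sodium and potassium list had 4 of 12 genes lower (12.4% of all genes) and 0 higher (12.2%) in saline-treated than in young mice, with a median of -0.26. Sgk1, the kinase that keeps the sodium channel at the surface, was at -1.04 ± 0.16 (log2, SE, edgeR adjusted p = 0.000142). Hsd11b2, which shields the receptor from glucocorticoids, was at -0.82 ± 0.22 (edgeR adjusted p = 0.00932), and the mineralocorticoid receptor gene Nr3c2 at -0.57 ± 0.13 (edgeR adjusted p = 0.00265). Cnksr3, a scaffold of the sodium channel's regulation, was at -0.26 ± 0.09 (edgeR adjusted p = 0.0357). With MCC950 against saline 1 of 12 was lower (4.86% of all genes), Nr3c2 at -0.45 ± 0.12 (edgeR adjusted p = 0.0149).

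Acid and base genes other than the 3 above had 8 of 15 lower (12.4% of all genes) and 0 higher (12.2%) in saline-treated than in young mice. Their median was -0.47. Among them were the ammonia channel genes Rhbg, at -0.79 ± 0.16 (log2, SE, edgeR adjusted p = 0.00144), and Rhcg, at -0.73 ± 0.16 (edgeR adjusted p = 0.0026). The cytosolic carbonic anhydrase gene Car2 was at -0.54 ± 0.14 (edgeR adjusted p = 0.00701) and the pump subunit gene Atp6v0d2 at -0.57 ± 0.15 (edgeR adjusted p = 0.00812). With MCC950 against saline 1 of 15 was higher (11.9% of all genes), Car2 at 0.54 ± 0.13 (edgeR adjusted p = 0.00958). The 1 that was lower (4.86% of all genes) was Atp12a, the proton and potassium pump, at -2.44 ± 0.52 (edgeR adjusted p = 0.0057). Atp12a was near the floor, with a mean of 0.83 CPM in saline-treated and 0.16 CPM in MCC950-treated libraries, and these groups overlapped. Car2 is expressed in many cell types.

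Of 15 pump subunits that most cells carry, 5 were higher (11.9% of all genes) and 0 lower with MCC950 against saline, with a median of 0.19 beside 0.00 for all genes. The 7 of 10 proximal tubule markers that were higher in the same comparison are given above, and their part in this was not tested. Atp6v1b2, the widely expressed counterpart of Atp6v1b1, was at 0.47 ± 0.08 (log2, SE, edgeR adjusted p = 0.00149), while Atp6v1b1 had the value of -0.24 ± 0.12 given above. Atp6v0d1 was at 0.35 ± 0.07 (edgeR adjusted p = 0.00269), Atp6v1c1 at 0.36 ± 0.08 (edgeR adjusted p = 0.00958) and Atp6v0c at 0.24 ± 0.06 (edgeR adjusted p = 0.0137). In saline-treated against young mice 2 of these 15 were higher (12.2% of all genes), Atp6v0a1 and Atp6v1g1, and 3 were lower (12.4%).

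Collecting duct transcription factors and identity genes had 4 of 12 lower (12.4% of all genes) and 0 higher (12.2%) in saline-treated than in young mice. Their median was -0.36, and 12 of 12 log2 fold changes were below 0, as were 47.3% of all genes tested. Gata3, a transcription factor of the principal cell, was at -0.70 ± 0.17 (log2, SE, edgeR adjusted p = 0.00445), and Tfcp2l1, a transcription factor of both cell types, at -0.43 ± 0.15 (edgeR adjusted p = 0.034). The intercalated cell receptors Insrr, at -0.81 ± 0.26 (edgeR adjusted p = 0.0252), and Oxgr1, at -0.50 ± 0.17 (edgeR adjusted p = 0.0411), were the other two. With MCC950 against saline edgeR called 0 of 12, with 1 at an unadjusted p under 0.05, and DESeq2 called 1. That gene was Foxi1, the transcription factor of intercalated cells, at -0.48 ± 0.17 (log2, SE, edgeR adjusted p = 0.0519), named here after its value had been seen.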

How the data were processed

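The 21 libraries were mRNA-seq of nephrin-sorted podocyte fractions, grouped by their labels into young (6), saline (7) and MCC950 (8). The authors trimmed reads with Trim Galore, aligned them to mm10 with Bowtie2 and made the deposited counts per gene with featureCounts; the annotation release, strand setting and handling of multiply aligned reads are not given in the sources used here. The tables list 27179 genes by Entrez number, of which 25275 were named from RefSeq, and have no row without a gene number. A deposited table normalized with DESeq2 for 20 of the libraries was not used here, and the authors' lists of changed genes were not used.

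Counts were tested with edgeR 4.0.16 (TMM, filterByExpr, quasi-likelihood test, 3 groups in 1 fit, 16377 genes, Benjamini-Hochberg adjustment, threshold 0.05) in R 4.3.3, and with DESeq2 1.42.0 as an alternative. SE is the size of the log2 fold change over the square root of its F value. CPM were scaled by TMM, and CPM per kilobase used GENCODE exon lengths on GRCm38. Log2 ratios had 0.5 added to each count and were compared by exact permutation tests over 9 comparisons (scipy 1.17.1, Python 3.11.15). Correlations used log2 CPM (prior count 2) as deviations from group means, with 100000 permutations within groups. The scripts were tested on simulated data. Sequences came from RefSeq on GRCm38.p6.

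The 10 genes, the other gene lists and the tests were chosen with earlier results of these data known. All 10 are named. From each pathway list the genes with an adjusted p under 0.05 in either comparison of saline-treated mice were named, at most 4 of smallest p per list and comparison, and the 5 genes most correlated with Aqp2 and with Atp6v1b1, the 10 genes themselves left out. Some genes that this rule names are not reported here. Arhgap4, Foxi1, Slc12a1, Umod, Calb1, Pvalb and the genes that vary with Slc14a2 were named after their values had been seen. Marker lists of podocytes, proximal tubule, thick ascending limb and distal convoluted tubule, red blood cells, endothelium, macrophages, mesangium with smooth muscle, and T, B and plasma cells were used. Replicate numbers did not pair the libraries: over 6 pairs of young and saline libraries the correlation of same-numbered libraries ranged from -0.061 to 0.35, and over 7 pairs of saline and MCC950 libraries from -0.14 to 0.33. Alternatives were another scaling, other count filters, mitochondrial genes left out, only the groups compared, a replicate block, marker scores as covariates, DESeq2, another pseudocount and each library left out.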

Additional observations from a re-analysis of the deposited data

Results flagged for a closer look

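Of 30 sets of levels (10 genes in 3 groups) tested for a single library far from the others, 1 stood out, where chance gives about 5% of sets. It was Slc14a2 in MCC950 replicate 3, at 1.10 CPM (52 counts). On the log2 scale its gap to the next library was 0.624 of the range of the 8 MCC950-treated libraries. The podocyte markers of that library summed to 621 CPM, within the 397 to 661 CPM of the others. Its endothelial markers were the highest of the group, at 442 CPM beside 235 to 356 CPM, and its macrophage markers the lowest, at 1056 CPM beside 1413 to 3806 CPM. The T cell markers were also lowest there, at 7.04 CPM beside 7.52 to 71.7 CPM. Over the whole groups, 9 of 10 endothelial markers were lower (12.4% of all genes) and 4 of 10 macrophage markers higher (12.2%) in saline-treated than in young mice. With MCC950 against saline 4 endothelial markers were lower (4.86% of all genes), all by edgeR at an adjusted p under 0.05. Of the 10 macrophage markers 0 were called there by edgeR, at an unadjusted p under 0.05 either, or by DESeq2. The part of these marker lists in the low value was not tested. Without that library the log2 fold change of Slc14a2 in MCC950-treated against saline-treated mice stayed within the range of -1.37 to -1.05 given above.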

How the results depend on the processing

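Over the 10 settings other than leaving out 1 library, 81, 87 and 83 of 100 gene results kept their direction and side of the threshold in saline-treated against young, MCC950-treated against saline-treated and MCC950-treated against young mice. The count of 4 lower genes in saline-treated against young mice became 8 with only these groups fitted and 8 with DESeq2, and 0 with the podocyte marker score as a covariate. It ranged from 0 (without young replicate 3) to 7 (without young replicate 6) as each library was left out. The count of 1 in MCC950-treated against saline-treated mice became 2 with the proximal tubule score (Scnn1b and Scnn1g, not Slc14a2) and 0 with the podocyte score, and ranged from 0 to 1 as libraries were left out. The count of 10 in MCC950-treated against young mice became 1 with the podocyte score, and ranged from 7 to 10. Under the podocyte score 1, 1277 and 242 of all 16377 genes were lower in these 3 comparisons. Under the proximal tubule score 306 were lower in MCC950-treated against saline-treated mice. The cause was not tested. Leaving out MCC950 replicates 6 and 7, chosen after seeing the data as they were low in most principal cell genes, gave 6, 1 and 9. The replicate numbers do not pair the samples, and a fit with the replicate block gave 3, 1 and 8.

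Sign changes were of log2 fold changes near 0 or under the podocyte score. In MCC950-treated against saline-treated mice Aqp2 was 0.12 without MCC950 replicates 6 and 7 together and ranged from -0.16 to 0.073 over single libraries. Scnn1a was 0.00442 without a filter, 0.043 with the replicate block, 0.026 with the podocyte score and ranged from -0.11 to 0.080. Slc26a4 was -0.00671 with DESeq2's size factors, -0.00654 with only these groups, -0.060 with the replicate block, -0.34 with the podocyte score and -0.00621 with DESeq2, and ranged from -0.11 to 0.12. With the podocyte score Slc26a4 was also 0.51 in saline-treated and 0.17 in MCC950-treated against young mice. With single libraries left out, the log2 ratio of Aqp2 to Atp6v1b1 in MCC950-treated against saline-treated mice ranged from -0.012 to 0.20, and that of Slc4a1 to Slc26a4 from -0.25 to 0.044 there and from -0.058 to 0.22 against young mice. The correlation of Aqp2 and Atp6v1b1 fell to 0.25 without the 2 libraries farthest from the median.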

Other observations

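Genes whose deviations from group means were most like those of Slc14a2 over 21 libraries, looked up after its values had been seen, were Corin (r = 0.84), Lmod1 (0.82), Igfbp3 (0.81), Morf4l1 (0.80) and the renin gene Ren1 (0.79). MCC950 replicate 3 was the lowest of its group for each of them. Ren1 had 0.954 CPM there and 2.76 to 16.8 CPM in the other MCC950-treated libraries, and Corin 0.212 CPM and 0.472 to 2.40 CPM. Without that library r fell to 0.70 for Corin, 0.33 for Lmod1, 0.60 for Igfbp3, 0.61 for Morf4l1 and 0.49 for Ren1.

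Among 10 markers of the thick ascending limb and distal convoluted tubule, the nephron segments before the collecting duct, 2 were lower with MCC950 against saline (Slc12a1 and Umod, beside 4.86% of all genes) and 0 were higher, with a median log2 fold change of -0.09. In saline-treated against young mice 2 of them were lower (Calb1 and Pvalb, beside 12.4% of all genes). Their summed level was 3262 to 4600.3 CPM in young, 3295 to 4839 CPM in saline-treated and 2469 to 4502 CPM in MCC950-treated libraries.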
